A study of Mus musculus with 12 samples.

Results

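Tenomodulin (Tnmd) and chondromodulin (Cnmd) are paralogs, and scleraxis (Scx) and mohawk (Mkx) are transcription factors of tendon. These 4 genes were taken by their symbols from the 17536 genes with values in the RNA-seq of Runx3-deficient chondrocytes, and each symbol matched 1 gene. The genes were proposed for their pattern between zones, so differences between zones are described for them without a test. The RNA came from superficial zone (SFZ) and deep zone (DZ) cells from cartilage of the proximal femur and distal tibia of 5-day-old mice, C57BL/6 by the sample records and C57BL/6J in the methods. R3-Cntl mice carried Runx3 fl/fl alleles and no Cre, and R3-cKO mice carried the same alleles with Col2a1-Cre, which acts in cells of the chondrocyte lineage. Each genotype and zone had 3 libraries, 12 in all, and the study describes littermates.

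Ligaments and tendons were excised before digestion, according to the study's methods. SFZ cells were released by trypsin and collagenase, and DZ cells by a further collagenase digestion of the cartilage that remained. Zones are therefore fractions of a digestion, and the methods describe seeding of the cells on fibronectin as a monolayer. Values are FPKM scaled between libraries, a unit inferred from the values, which sum to between 392241 and 429213 in a library. FPKM is a level per length of transcript, so levels of different genes can be set side by side. Read depth is unknown, so error could be judged only from how far libraries of a group lie apart. Differences are given on the scale of log2(FPKM + 1), on which differences of genes at low levels come out too small. In bulk RNA, fewer cells of a type and less RNA per cell cannot be told apart.

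Tnmd and Cnmd are transmembrane glycoproteins that share a BRICHOS domain and a C-terminal domain that inhibits the growth of blood vessels. Tnmd marks mature tendon and ligament cells, whereas Cnmd is made by chondrocytes of avascular cartilage, where its C-terminal part is released into the matrix. Scx, a basic helix-loop-helix factor, and Mkx, a homeobox factor, promote the tendon programme, and Tnmd is a known target of Scx.

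Runx3, the targeted gene, was at 10.73, 5.98 and 6.65 FPKM in SFZ libraries 1, 2 and 3 of R3-Cntl mice, and at 11.83, 9.07 and 3.42 FPKM in those SFZ libraries labelled R3-cKO. In DZ libraries Runx3 was at 12.67, 12.65 and 7.66 FPKM for R3-Cntl and at 15.95, 12.66 and 8.14 FPKM in those labelled R3-cKO. Values of the 2 genotypes overlapped in both zones, and the log2 difference was -0.04 (SE 0.43; exact two-sided permutation p = 1, n = 3 per group) in SFZ and 0.13 (SE 0.28; exact p = 0.6) in DZ cells. The level of the whole gene thus did not check the labels, and it does not show the deleted part by itself. The genotypes are therefore named below as the libraries are labelled. The study reports Prg4, the gene of lubricin, as lower in SFZ cells without Runx3. Here Prg4 was at 22.24, 8.38 and 7.13 FPKM in SFZ libraries of R3-Cntl mice and at 6.95, 2.47 and 2.13 FPKM in SFZ libraries labelled R3-cKO (limma adjusted p = 1). In DZ cells Prg4 was at 1.39, 1.22 and 1.47 FPKM for R3-Cntl and at 5.72, 1.32 and 2.14 FPKM in libraries labelled R3-cKO. The genotypes did not overlap in SFZ and overlapped in DZ cells. Apart from this sequencing, the study reports lower Prg4 mRNA in SFZ and lower Acan mRNA in DZ cells of R3-cKO mice. Prg4 in SFZ cells had that direction here (log2 difference -1.45, SE 0.52). So did Acan in DZ cells (-0.41, SE 0.33; limma adjusted p = 0.999). Neither gene passed by limma, and whether the labels are right was not tested. Summed over the Y-linked genes Ddx3y, Eif2s3y, Kdm5d and Uty, the level was 42.9, 12.1 and 52.4 FPKM in SFZ libraries of R3-Cntl and 28.3, 0.0600 and 0.0300 FPKM in SFZ libraries labelled R3-cKO. For DZ libraries this level was 40.0, 16.8 and 17.0 FPKM with R3-Cntl mice and 29.6, 0.0100 and 0.0300 FPKM in libraries labelled R3-cKO. Libraries 2 and 3 labelled R3-cKO thus lacked Y-linked transcripts in both zones, and Tnmd is X-linked. Their part in any genotype difference was not tested.

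Tnmd lies on chromosome X (mm9, chrX:130385519-130400116, plus strand; Entrez Gene 64103), and its annotated exons cover 1353 bases. In R3-Cntl cells Tnmd was at 46.7, 74.48 and 14.08 FPKM in SFZ libraries 1, 2 and 3 and at 0.35, 0.27 and 1.14 FPKM in DZ libraries. Every SFZ library was above every DZ library, and SFZ library 3 was the lowest of its group. In cells labelled R3-cKO Tnmd was at 31.13, 26.21 and 85.6 FPKM in SFZ libraries, and in DZ libraries it was listed at 0, 0.27 and 0 FPKM. The zones again did not overlap, with SFZ library 3 the highest of all 12 libraries. The mean level in SFZ cells was 45.1 ± 30.2 FPKM (SD, n = 3) in R3-Cntl and 47.6 ± 33.0 FPKM (SD, n = 3) in libraries labelled R3-cKO, and in R3-Cntl DZ cells it was 0.587 ± 0.481 FPKM (SD, n = 3). By group mean, Tnmd stood at place 1593 of 17536 genes in R3-Cntl SFZ cells and at place 11615 in R3-Cntl DZ cells. The log2 difference of DZ minus SFZ was -4.62 (SE 0.57) in R3-Cntl cells and -5.29 (SE 0.44) in cells labelled R3-cKO. Among 11336 genes, these differences held place 5 and place 6 from the lowest. Tnmd was among these genes through its SFZ libraries, and the size of its differences depends on the 1 added to FPKM. The places describe the zone pattern for which Tnmd was proposed and are no further support for it.

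**Figure D1:**
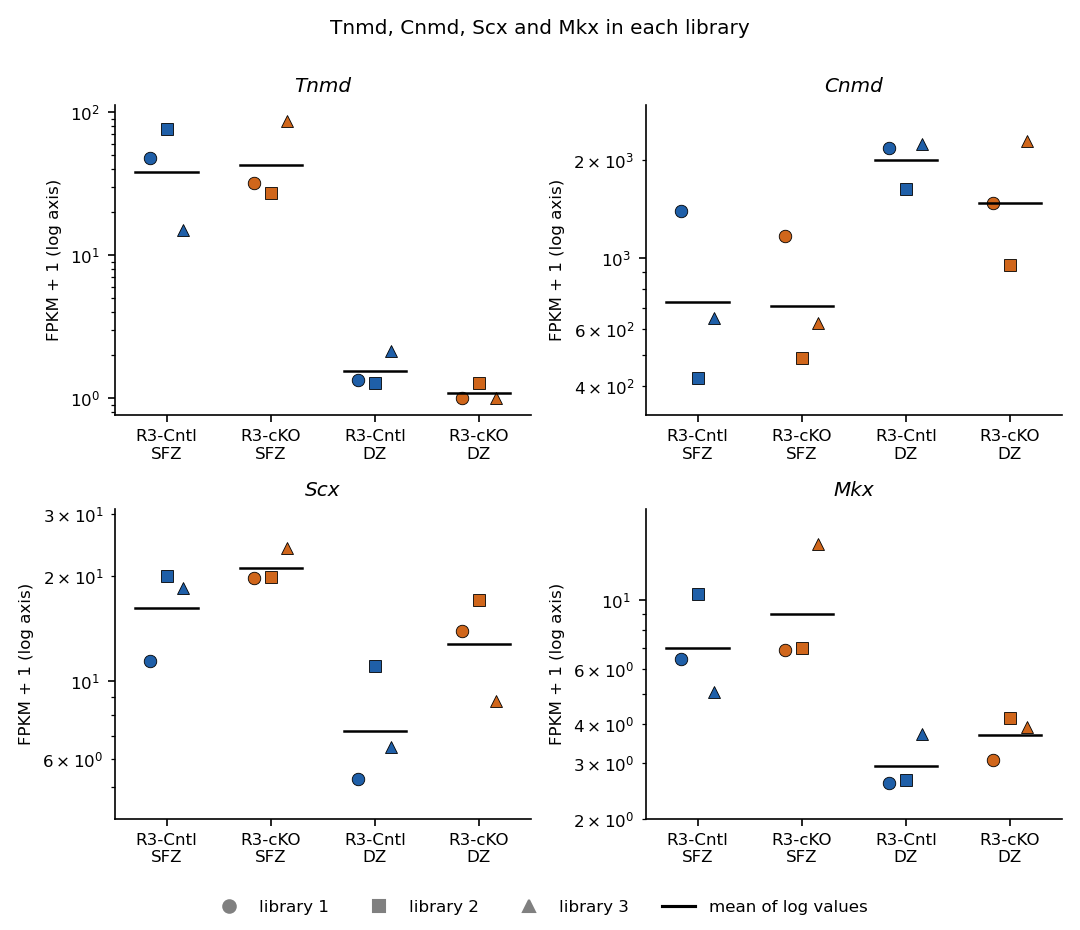
Level of each gene in each of the 12 libraries, as FPKM + 1 on a log axis, by genotype and zone. Colours mark the genotype label, symbols the library number and bars the mean of the log values. Tnmd is at 14.08 FPKM or more in SFZ libraries and at 1.14 FPKM or less in DZ libraries, and Cnmd is at 424.32 FPKM or more in every library.

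Cnmd lies on chromosome 14 (mm9, chr14:80037497-80061977, minus strand; Entrez Gene 16840), is named Lect1 in the GENCODE annotation of that build, and has 1843 exonic bases. In R3-Cntl cells Cnmd was at 1390.19, 424.32 and 649.54 FPKM in SFZ libraries 1, 2 and 3 and at 2174.97, 1632.52 and 2249.11 FPKM in DZ libraries. Every DZ library was above every SFZ library, and SFZ library 1 came nearest to the DZ group. In cells labelled R3-cKO Cnmd was at 1165.88, 488.76 and 627.66 FPKM in SFZ libraries and at 1474.11, 944.92 and 2285.14 FPKM in DZ libraries. Here the groups overlapped, because DZ library 2 was below SFZ library 1, although the DZ library was the higher in each of the 3 pairs of equal number. Mean levels were 821 ± 505 FPKM in R3-Cntl SFZ, 761 ± 358 FPKM in SFZ labelled R3-cKO, 2019 ± 337 FPKM in R3-Cntl DZ and 1568 ± 675 FPKM in DZ labelled R3-cKO (SD, n = 3 each). The 2 SFZ means differed by less than the larger of their SD, and so did the 2 DZ means. Cnmd was thus among the most abundant transcripts of both zones, at place 74 of 17536 genes by its mean in R3-Cntl SFZ cells and at place 11 in R3-Cntl DZ cells. The log2 difference of DZ minus SFZ was 1.46 (SE 0.43) in R3-Cntl cells and 1.05 (SE 0.44) in cells labelled R3-cKO, place 75 and place 111 from the highest among 11336 genes. Cnmd was also proposed for its zone pattern, so its places only describe it. DZ means were 2.46 and 2.06 times the SFZ means.

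Because the levels of the 2 paralogs moved in opposite directions between zones, the 250 bases before each start are shown, taken from RefSeq on GRCm38.p6. Of the 4 genes, 2 matched the RefSeq promoter table. Capitals mark CANNTG, the E-box letters that basic helix-loop-helix factors bind, which read the same on both strands. The window of Tnmd is chrX:133850758-133851007 on the plus strand and that of Cnmd is chr14:79662184-79662433 on the minus strand, both written 5′ to 3′ toward the start.
Tnmd: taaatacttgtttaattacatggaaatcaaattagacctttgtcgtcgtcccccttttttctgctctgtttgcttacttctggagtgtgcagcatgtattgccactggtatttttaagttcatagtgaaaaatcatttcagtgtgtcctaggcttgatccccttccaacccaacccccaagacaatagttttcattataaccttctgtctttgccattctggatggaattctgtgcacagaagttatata
Cnmd: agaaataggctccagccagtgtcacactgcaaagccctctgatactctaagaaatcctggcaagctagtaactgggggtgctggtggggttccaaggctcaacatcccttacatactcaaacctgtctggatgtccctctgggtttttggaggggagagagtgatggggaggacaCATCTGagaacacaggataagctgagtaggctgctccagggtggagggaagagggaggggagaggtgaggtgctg
The Tnmd window held 0 matches and the Cnmd window 1, CATCTG, 75 bases before the start. At least 1 match was found in 66.2% of 32851 promoters of this length, with a median of 1 per promoter. TGTGGT and TGCGGT, letters that Runx factors bind, were searched on both strands and found in neither window and in 18.6% of all promoters. G and C made up 38.4% of the Tnmd window and 54.0% of the Cnmd window, against a median of 52.4% over all promoters. These counts describe the letters of a short window and no binding.

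Set beside each other in the same library, Tnmd amounted to 3.36, 17.6 and 2.17% of the FPKM of Cnmd in R3-Cntl SFZ libraries and to 2.67, 5.36 and 13.6% in SFZ libraries labelled R3-cKO. In DZ cells the percentages were 0.0161, 0.0165 and 0.0507 in R3-Cntl and 0, 0.0286 and 0 in libraries labelled R3-cKO. Cnmd was therefore the more abundant paralog in each of the 12 libraries, and the share of Tnmd was lower in every DZ library than in every SFZ library. In the plot of Tnmd against Cnmd the zones separate along the Tnmd axis, whereas on the Cnmd axis R3-cKO DZ library 2 lies among SFZ libraries. The coding sequences of 954 bases (Tnmd) and 1017 bases (Cnmd) shared 556 of 915 aligned bases, an identity of 60.8%. The longest run of identical bases was 18, and reads were of 100 bases. Whether reads were assigned to the wrong paralog was not tested. Other genes with a BRICHOS domain in the values were Itm2a, Itm2b, Itm2c, Bricd5, Sftpc and Gkn3, and 3 of these 6 passed the filter, a minimum of 1 FPKM in 3 or more libraries of a comparison. Itm2a, the most abundant of them, was at 1398.86, 780.91 and 417.49 FPKM in SFZ libraries of R3-Cntl and at 696.74, 672.91 and 1636.75 FPKM in R3-Cntl DZ libraries, so that its zones overlapped. The median log2 difference between zones of Itm2a, Itm2b and Itm2c was -0.17 in R3-Cntl cells, equal to the median of all genes, and 0.02 with median-of-ratios size factors. In cells labelled R3-cKO it was -0.36 against -0.09 for all genes, and limma called 0 of the 3 genes in either genotype.

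**Figure D2:**
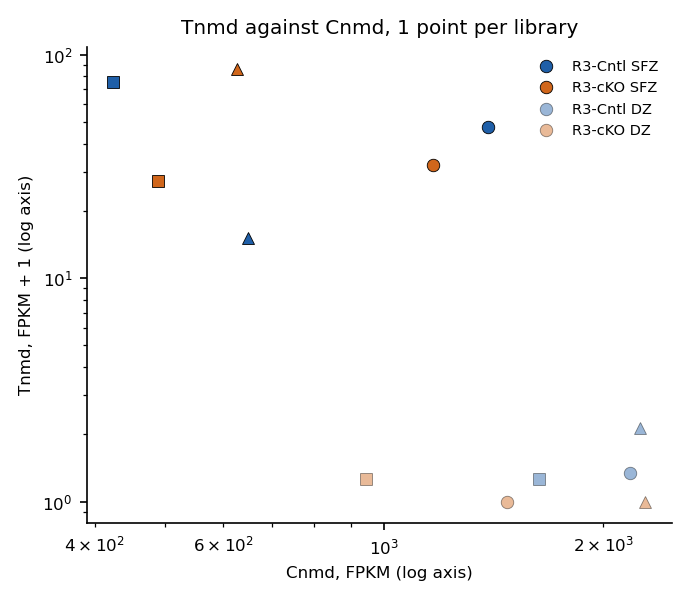
Tnmd (FPKM + 1, log axis) against Cnmd (FPKM, log axis), with 1 point for each of the 12 libraries; colour marks genotype and zone, and circles, squares and triangles mark libraries 1, 2 and 3. SFZ libraries lie at 14.08 to 85.6 FPKM of Tnmd and DZ libraries at 0 to 1.14 FPKM.

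Scx lies on chromosome 15 (mm9, chr15:76287868-76289898, plus strand; Entrez Gene 20289). In R3-Cntl cells Scx was at 10.43, 18.98 and 17.54 FPKM in SFZ libraries 1, 2 and 3 and at 4.27, 10.09 and 5.47 FPKM in DZ libraries. The zones did not overlap, but SFZ library 1 and DZ library 2 were close to each other. In cells labelled R3-cKO Scx was at 18.8, 18.88 and 22.98 FPKM in SFZ libraries and at 12.93, 16.07 and 7.77 FPKM in DZ libraries. SFZ values were again all above DZ values. Means were 15.7 ± 4.58 FPKM in R3-Cntl SFZ, 20.2 ± 2.39 FPKM in SFZ labelled R3-cKO, 6.61 ± 3.07 FPKM in R3-Cntl DZ and 12.3 ± 4.19 FPKM in DZ labelled R3-cKO (SD, n = 3 each). In the order of means, SFZ labelled R3-cKO and R3-Cntl SFZ differed by less than the larger SD, as did R3-Cntl SFZ and DZ labelled R3-cKO. The log2 difference of DZ minus SFZ was -1.16 (SE 0.33) in R3-Cntl cells and -0.73 (SE 0.26) in cells labelled R3-cKO, and SFZ means were 2.37 and 1.65 times the DZ means.

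All 2031 bases of the Scx gene lie within Bop1, a ribosome biogenesis gene on the opposite strand, although the 1136 exonic bases of Scx share 0 bases with exons of Bop1. Whether the counting used strand is not given in the sources used here, so reads from unspliced Bop1 transcripts could be counted for Scx. Bop1 was at 18.98, 23.51 and 26.12 FPKM in SFZ libraries of R3-Cntl and at 18.06, 23.8 and 15.24 FPKM in R3-Cntl DZ libraries. In cells labelled R3-cKO it was at 18, 27.72 and 17.01 FPKM in SFZ and at 20.57, 28.38 and 16.71 FPKM in DZ libraries. The zones of Bop1 overlapped in both genotypes, with log2 differences of -0.26 (SE 0.19) and 0.06 (SE 0.26). These values do not measure unspliced Bop1 transcripts, and their part in the values of Scx was not tested.

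Mkx (Entrez Gene 210719) was the least abundant of the 4 genes in SFZ cells. In R3-Cntl cells Mkx was at 5.46, 9.44 and 4.07 FPKM in SFZ libraries 1, 2 and 3 and at 1.6, 1.65 and 2.71 FPKM in DZ libraries. Under the R3-cKO label it was at 5.92, 6.01 and 14.03 FPKM in SFZ libraries and at 2.08, 3.18 and 2.93 FPKM in DZ libraries. The zones did not overlap in either genotype, and SFZ library 3 labelled R3-cKO, the highest for Tnmd, was also the highest for Mkx. Means were 6.32 ± 2.79 FPKM in R3-Cntl SFZ, 8.65 ± 4.66 FPKM in SFZ labelled R3-cKO, 1.99 ± 0.627 FPKM in R3-Cntl DZ and 2.73 ± 0.577 FPKM in DZ labelled R3-cKO (SD, n = 3 each). Within a zone the 2 genotype means of Mkx differed by less than the SD in SFZ and by more than the SD in DZ cells, where the values still overlapped. The log2 difference of DZ minus SFZ was -1.25 (SE 0.29) in R3-Cntl cells and -1.28 (SE 0.33) in cells labelled R3-cKO, and SFZ means were 3.18 and 3.17 times the DZ means.

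To set these differences against other genes, zones were compared by limma over the 11336 genes that passed the filter, and all 4 genes were among them. Tnmd passed through its SFZ libraries, since 1 of 6 DZ libraries reached 1 FPKM. In R3-Cntl cells, zones did not overlap for 4 of 4 genes, of which Cnmd was higher and Tnmd, Scx and Mkx were lower in DZ cells, while 5.96% of all genes were higher and 26.5% lower without overlap. Among libraries labelled R3-cKO, 3 of 4 did not overlap, all lower in DZ cells, against 16.8% of all genes lower and 4.24% higher, and Cnmd overlapped. The pattern between zones was part of the choice of these 4 genes, and nothing more is read from these counts. By limma at an adjusted p under 0.05, 17 genes (0.150%) were higher and 123 (1.09%) lower in DZ than in SFZ cells of R3-Cntl, and 0 genes (0%) were higher and 2 (0.0176%) lower in cells labelled R3-cKO. At an unadjusted p under 0.05 the latter comparison had 344 genes higher and 1258 lower. With the replicate number as a block, 352 genes were called in cells labelled R3-cKO. The block called 831 in R3-Cntl cells, where equal numbers did not pair the libraries. The number of calls in R3-Cntl, 140, moved with each library left out. It was 0 without SFZ library 2, DZ library 1 or DZ library 2. It was 3 without SFZ library 3, 4 without DZ library 3 and 505 without SFZ library 1.

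More genes were lower than higher in DZ cells, with a median log2 difference of -0.17 over all genes in R3-Cntl and of -0.09 in cells labelled R3-cKO. This balance depended on scaling: quantile normalization moved the medians to 0.05 and 0.04, and median-of-ratios size factors to 0.01 and 0.03. Relative to the median of all genes, the log2 differences in R3-Cntl cells were -4.45 for Tnmd, 1.63 for Cnmd, -0.99 for Scx and -1.08 for Mkx. With the R3-cKO label they were -5.20 for Tnmd, 1.14 for Cnmd, -0.64 for Scx and -1.19 for Mkx. With median-of-ratios size factors, the relative differences in R3-Cntl cells were -4.49, 1.65, -0.99 and -1.10 for Tnmd, Cnmd, Scx and Mkx, and -5.25, 1.16, -0.63 and -1.20 in cells labelled R3-cKO. The zone differences of these 4 genes kept their direction under every alternative that gave a value. Where zones did not overlap, leaving out a library, another pseudocount or a ratio of means could not turn a direction. The kept direction is therefore no further support for a pattern that was part of the choice. The plot of differences shows Tnmd far from the other 3 genes and Cnmd alone on the side of DZ cells.

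**Figure D3:**
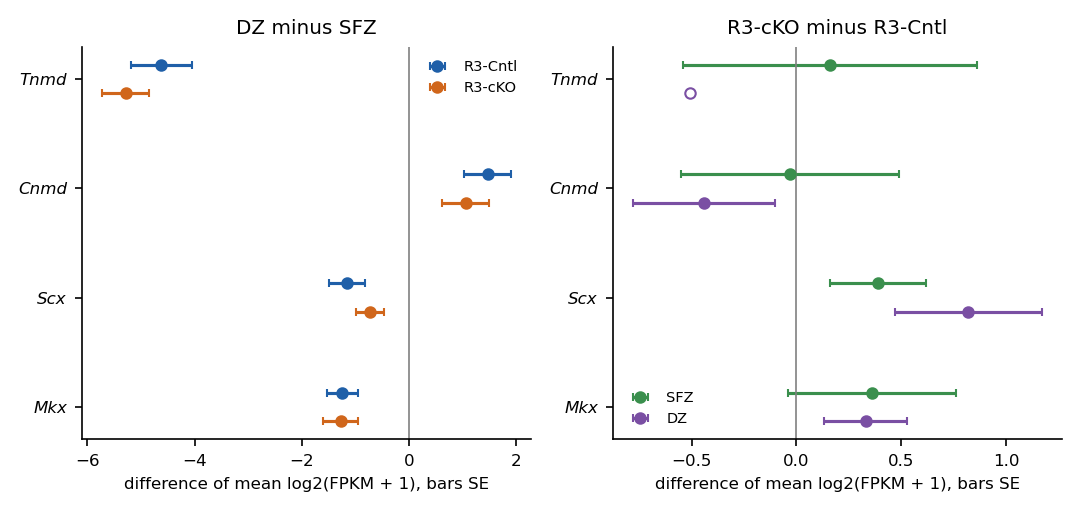
Differences of mean log2(FPKM + 1) for the 4 genes, DZ minus SFZ on the left and R3-cKO minus R3-Cntl labels on the right, with bars for the SE (n = 3 per group). The open point, Tnmd between genotypes in DZ cells (-0.51), has no SE because Tnmd did not pass the filter there.

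Between genotypes, 0 of the 4 genes separated the groups in either zone, and limma called none of them. In SFZ cells 0 of 11537 genes (0%) passed an adjusted p of 0.05 by limma, 34 had an unadjusted p under 0.05 and 2.40% of genes did not overlap. In DZ cells 0 of 11091 genes (0%) passed by limma, 404 had an unadjusted p under 0.05 and 8.03% did not overlap. Equal numbers paired these DZ libraries. With the replicate number as a block, limma gave 1830 genes at an unadjusted p under 0.05 in DZ cells and called 0, with a smallest adjusted p of 0.0587. The SE and p values given below leave the libraries unpaired. An exact permutation test of 3 against 3 libraries cannot give a two-sided p below 0.1. In SFZ cells the log2 difference of R3-cKO minus R3-Cntl labels was 0.16 (SE 0.70; limma adjusted p = 1; exact permutation p = 0.9) for Tnmd and -0.03 (SE 0.52; limma adjusted p = 1; exact permutation p = 0.9) for Cnmd. It was 0.39 (SE 0.23; limma adjusted p = 1; exact permutation p = 0.3) for Scx and 0.36 (SE 0.40; limma adjusted p = 1; exact permutation p = 0.5) for Mkx. Scx and Mkx were higher in the library labelled R3-cKO in 2 of 3 equal numbers, and Tnmd and Cnmd in 1 of 3. Equal numbers did not pair these SFZ libraries, so nothing is read from that count. The SFZ differences of 3 genes turned when libraries changed: without SFZ library 3 labelled R3-cKO, Tnmd was at -0.36, Cnmd at 0.06 and Mkx at -0.01. Tnmd also turned without R3-Cntl library 3 (-0.50), and Cnmd without R3-Cntl library 1 (0.43) or library 2 labelled R3-cKO (0.24).

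In DZ cells no genotype difference of the 4 genes passed. Scx was 0.82 higher on the log2 scale in DZ libraries labelled R3-cKO (SE 0.35; limma adjusted p = 0.999; exact permutation p = 0.2), higher in 3 of 3 equal numbers, and the limma adjusted p was 0.203 to 1 over the alternatives. Mkx was 0.33 higher (SE 0.20; limma adjusted p = 0.999; exact permutation p = 0.2), also in 3 of 3 numbers. Cnmd was at -0.44 (SE 0.34; limma adjusted p = 0.999; exact permutation p = 0.4), lower in 2 of 3 numbers, and at -0.76 to -0.12 with each library left out. Tnmd could not be fitted in DZ cells because it was below the filter, and its values in libraries labelled R3-cKO were 0, 0.27 and 0 FPKM against 0.35, 0.27 and 1.14 FPKM in R3-Cntl (exact permutation p = 0.2). With library 1 as the only library labelled R3-cKO, an alternative chosen after seeing the Y-linked values, the DZ difference was 0.95 for Scx, 0.06 for Mkx and -0.44 for Cnmd, and the SFZ difference was -0.24 for Tnmd, 0.68 for Cnmd, 0.29 for Scx and -0.02 for Mkx.

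Whether the genotype effect differed between zones was tested as an interaction over all 12 libraries, and limma called 0 of 11765 genes (0%), with 99 at an unadjusted p under 0.05. The difference of effects, DZ minus SFZ, was -0.41 for Cnmd (SE 0.67; limma adjusted p = 0.999), 0.44 for Scx (SE 0.45; limma adjusted p = 0.999) and -0.04 for Mkx (SE 0.48; limma adjusted p = 0.999). Each of these 3 was within 1 SE of 0. Tnmd passed the filter through its SFZ libraries, with 1 of 6 DZ libraries at 1 FPKM or more. Its difference of effects, -0.67, therefore depends on the pseudocount (-2.10 with 0.1 in place of 1) and was -1.17 to -0.01 with each library left out, and no test of it is read. With each library left out, the difference of effects was -0.88 to -0.02 for Cnmd (-1.12 with library 1 as the only library labelled R3-cKO), 0.21 to 0.74 for Scx and -0.32 to 0.33 for Mkx.

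Correlations between the 4 genes within a zone differed by pair and by zone. Over the 6 SFZ libraries, Tnmd and Mkx had a Pearson r of 0.89 (Spearman 0.77), and R3-Cntl library 2 and library 3 labelled R3-cKO were the highest for both. Over the 6 DZ libraries the same pair had r = 0.07 (Spearman -0.26), at levels of Tnmd near 0. Tnmd and Cnmd had r = -0.12 (Spearman -0.20) in SFZ and 0.26 (Spearman 0.15) in DZ cells. Cnmd and Scx had r = -0.65 (Spearman -0.77) in SFZ and -0.88 (Spearman -0.77) in DZ cells, so that libraries rich in Cnmd were low in Scx. Scx and Mkx had r = 0.55 (Spearman 0.94) in SFZ and 0.35 (Spearman 0.54) in DZ cells. Tnmd and Scx had r = 0.14 (Spearman 0.60) in SFZ and -0.49 (Spearman -0.56) in DZ cells, and Cnmd and Mkx had r = -0.37 (Spearman -0.66) and -0.27 (Spearman -0.09). These values are descriptions over 6 libraries of 2 genotypes.

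The genes most like each of the 4 over all 12 libraries were found by Pearson r on the log2 scale among 11765 genes, a measure that includes the gap between zones. For Tnmd they were Ksr1 (r = 0.99), Ebf2, Postn, Agmo and Myoc (0.98 each), and within SFZ cells their r was 0.92, 0.93, 0.87, 0.93 and 0.88. Within DZ cells, where Tnmd was near 0, it was 0.97, -0.16, 0.74, 0.84 and 0.31. Postn encodes periostin, a matrix protein of ligament and periosteum, with a mean of 134 FPKM in SFZ and 2.31 FPKM in DZ libraries, and Myoc, the gene of myocilin, had means of 21.5 and 0.265 FPKM. For Cnmd they were Plxnb1 (0.99), Col11a1 and Col9a1 (0.97), Extl1 and Wwp2 (0.96), and these kept an r of 0.90 or more within SFZ and of 0.93 or more within DZ cells. Col11a1 and Col9a1 encode collagens of cartilage fibrils, and their means were 923 and 452 FPKM in SFZ and 1938 and 1309 FPKM in DZ libraries. Scx was most like Iars2 (0.98), Coa5, Stat6, Parp3 and Zswim8 (0.96), with means in SFZ and DZ libraries of 19.3 and 15.5 FPKM for Iars2 and of 33.8 and 19.7 FPKM for Parp3. Mkx was most like Zdhhc17 (0.98), Ssc5d, Pcdhga12, Vcam1 and Cilp2 (0.97), among which Ssc5d had means of 17.3 and 1.49 FPKM and Cilp2 of 13.7 and 1.34 FPKM.

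Other transcription factors of tendon were counted beside Scx and Mkx. Of a list of 6 without these, 5 were tested between zones. All 5 lay below 0 in each genotype, where the median of all genes was also below 0 (-0.17 in R3-Cntl and -0.09 with the R3-cKO label), and limma called 0 of them in R3-Cntl cells and 0 in cells labelled R3-cKO. Egr1, an immediate early factor that also acts in tendon, was at 22.55, 82.47 and 82.2 FPKM in SFZ libraries of R3-Cntl and at 2.56, 26.02 and 19.2 FPKM in R3-Cntl DZ libraries, so that its zones overlapped. Eya1 had the lowest limma adjusted p of the 5 in R3-Cntl cells, at 0.0622 (log2 difference -1.53, SE 0.31), with 8.23, 8.89 and 4.04 FPKM in SFZ and 0.99, 1.89 and 2.32 FPKM in DZ libraries. With the replicate number as a block, 3 of the 5 were called lower in R3-Cntl cells and 1 in cells labelled R3-cKO.

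Among 19 matrix genes of tendon and ligament other than Tnmd, 18 were tested, and the median log2 difference of DZ minus SFZ was -2.01 in R3-Cntl cells and -1.83 in cells labelled R3-cKO, with 16 and 15 of the 18 below 0. By limma, 2 fell in R3-Cntl DZ cells, Thbs4 (thrombospondin 4; log2 difference -5.23, SE 0.43; adjusted p = 0.0235) and Postn (-4.72, SE 0.66; adjusted p = 0.0480). Thbs4 was at 50.81, 99.61 and 63.04 FPKM in SFZ and at 0.25, 0.45 and 2.49 FPKM in DZ libraries of R3-Cntl, each DZ value far below each SFZ value. Like Tnmd, it passed the filter through its SFZ libraries, and its difference was -6.43 to -3.62 over the alternatives. Over the alternatives the limma adjusted p was 0.00294 to 0.145 for Thbs4 and 0.0118 to 0.228 for Postn, and quantile normalization left 0 of the 18 called. For the R3-cKO label limma called 0 of 18 (Thbs4 -5.50, SE 0.47; adjusted p = 0.0510), and 9 with the replicate number as a block, 8 lower and 1 higher. In R3-Cntl cells the block called 6 of the 18, all lower. The collagen I genes were the most abundant of the list in SFZ cells, and Col1a1 was at 1859.06, 3705.63 and 2111.58 FPKM in SFZ and at 24.4, 241.74 and 960.9 FPKM in DZ libraries of R3-Cntl (log2 difference -3.75, SE 1.21; limma adjusted p = 0.119). Col1a2 was at -3.07 (SE 0.91; limma adjusted p = 0.106). Not every gene of the list lay on the side of Tnmd, as decorin (Dcn) was at 190.58, 121.48 and 106.23 FPKM in SFZ and at 330.99, 257.95 and 548.66 FPKM in DZ libraries of R3-Cntl (log2 difference 1.41, SE 0.33; limma adjusted p = 0.0753). Fibromodulin (Fmod) was high in both zones, at 1041.73, 796.31 and 734.39 FPKM in SFZ and at 591.36, 466.17 and 943.17 FPKM in DZ libraries, and overlapped. Tnmd itself, at -4.62, lay between Postn and Col1a1.

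**Figure D4:**
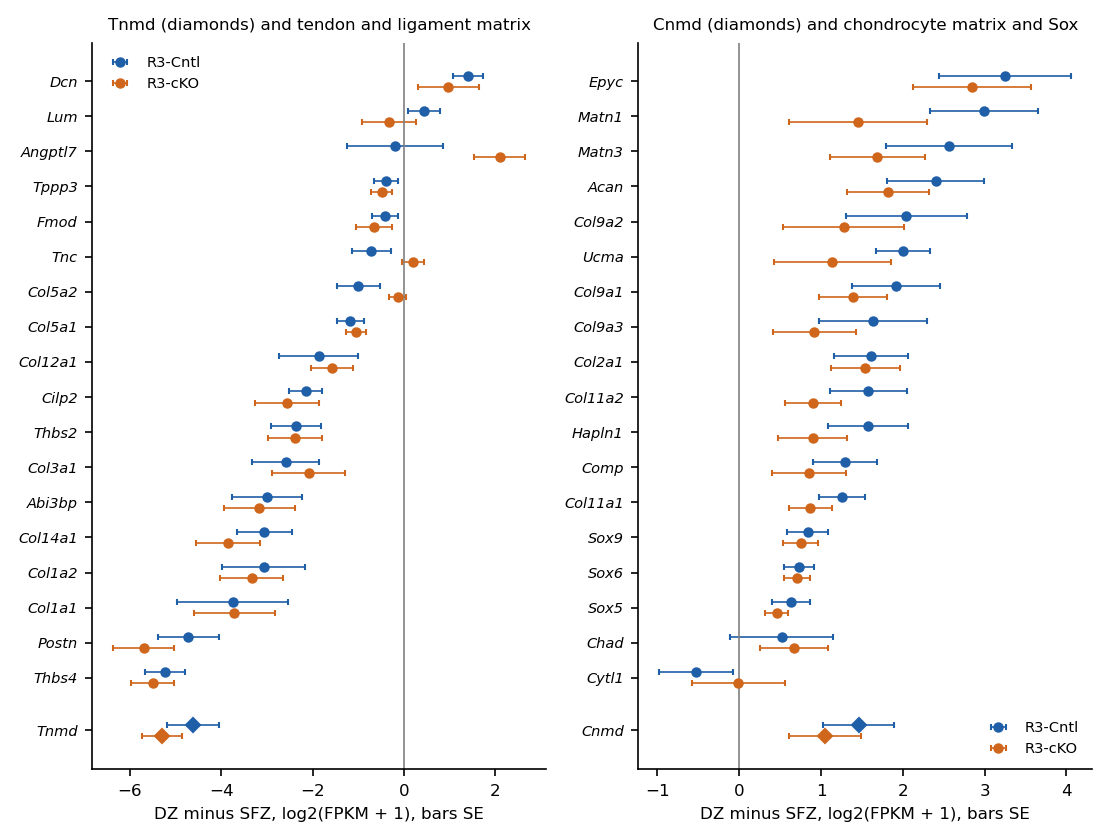
Differences of mean log2(FPKM + 1), DZ minus SFZ, in R3-Cntl (blue) and R3-cKO (orange) libraries, with bars for the SE (n = 3 per group). Tnmd (diamonds, left) is shown with 18 tendon and ligament matrix genes and Cnmd (diamonds, right) with 18 chondrocyte genes, of which 16 of 18 and 1 of 18 are below 0 in R3-Cntl cells.

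Cnmd lay with the genes of chondrocyte matrix and the Sox factors. Of 18 such genes tested, 17 were above 0 in each genotype, the median log2 difference of DZ minus SFZ was 1.59 in R3-Cntl cells and 0.91 in cells labelled R3-cKO, and limma called 0 in either. The replicate block called 9 of the 18 higher in R3-Cntl, where equal numbers did not pair the libraries, and 0 in cells labelled R3-cKO. With quantile normalization the medians were 1.57 and 0.98. Col2a1, the main collagen of cartilage, was at 9229.04, 3241.4 and 6727.97 FPKM in SFZ and at 22790.6, 14219.4 and 17524.7 FPKM in DZ libraries of R3-Cntl (log2 difference 1.61, SE 0.45; limma adjusted p = 0.0978). Acan, the gene of aggrecan, was at 669.68, 127 and 242.97 FPKM in SFZ and at 2045.89, 1112.09 and 1339.13 FPKM in DZ libraries (log2 difference 2.40, SE 0.59; limma adjusted p = 0.0794). The zones of each gene did not overlap, and R3-Cntl SFZ library 1 was the highest SFZ library for Col2a1, Acan and Cnmd. Between genotypes in DZ cells the list had a median of -0.43, against 0.05 over all genes, with 15 of 18 genes below 0 and 0 called by limma, and Cnmd at -0.44 was close to that median.

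Levels of marker lists differed between the same libraries and are given beside the zone differences; their part in these was not tested. Summed over 19 genes, tendon and ligament matrix was at 6258, 10531 and 6552 FPKM in R3-Cntl SFZ, 6679, 5668 and 14694 FPKM in SFZ libraries labelled R3-cKO, 1395, 2007 and 4603 FPKM in R3-Cntl DZ and 1910, 1986 and 3655 FPKM in DZ libraries labelled R3-cKO. The pair of libraries with the highest sums, R3-Cntl SFZ library 2 and SFZ library 3 labelled R3-cKO, were those with the most Tnmd and Mkx, and R3-Cntl DZ library 3 had the highest sum and the most Tnmd of the DZ libraries. Summed over 18 genes, chondrocyte matrix and Sox ranged from 5380 to 16535 FPKM in SFZ and from 16890 to 38984 FPKM in DZ libraries. All libraries of both zones therefore held abundant chondrocyte transcripts, and the labelled cell type was present in each.

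Markers of connective tissue and synovial fibroblasts lay below 0 for 9 of 9 genes tested between zones in R3-Cntl and for 7 of 8 in cells labelled R3-cKO. In R3-Cntl cells limma called 3 lower, Cd34 (log2 difference -4.07, SE 0.33; adjusted p = 0.0235), Thy1 (-3.93, SE 0.36; adjusted p = 0.0309) and Mfap5 (-3.06, SE 0.48; adjusted p = 0.0480), and the median was -2.87. Cd34 and Mfap5 passed the filter only through their SFZ libraries. Over the alternatives Cd34 was at -5.79 to -2.32 and Mfap5 at -4.35 to -1.60. With quantile normalization 0 of these 9 were called, 2 with median-of-ratios size factors and 4 with the replicate block. Under the R3-cKO label limma called 1 of 8 lower, Cd34 (-3.34, SE 0.22; adjusted p = 0.0190), and 3 with the replicate number as a block, with a median of -1.77. Cd34 was at 12.55, 27.89 and 27.89 FPKM in SFZ and at 0.06, 0.49 and 0.52 FPKM in DZ libraries of R3-Cntl, without overlap. The sum of the 12 markers, mostly vimentin (Vim), was 1160, 2357 and 2446 FPKM in R3-Cntl SFZ, 1262, 2740 and 1444 FPKM in SFZ labelled R3-cKO, 494, 1434 and 836 FPKM in R3-Cntl DZ and 1978, 2754 and 1492 FPKM in DZ labelled R3-cKO. In DZ cells this sum was higher in the library labelled R3-cKO in 3 of 3 equal numbers, as Scx was, and its part in the genotype difference of Scx was not tested.

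Sums of macrophage, muscle and endothelial markers were lower than the fibroblast sum, which is mostly Vim. Sums over different lists do not rank cell types. The 10 macrophage markers, led by Lyz2, summed to 173, 147 and 7.38 FPKM in R3-Cntl SFZ and 145, 14.8 and 69.2 FPKM in SFZ labelled R3-cKO, against 3.52 to 24.0 FPKM in DZ libraries. The 14 skeletal muscle markers summed to 136 FPKM in R3-Cntl SFZ library 2 and to 6.80 to 22.5 FPKM in the other 11 libraries. The 12 endothelial markers summed to 25.5 to 34.3 FPKM in SFZ and 10.1 to 20.8 FPKM in DZ libraries, mostly from Eng, while Cdh5 was at 1.21 FPKM or less in every library and at 0 in 3 DZ libraries. The 7 osteoblast markers included Col1a1, which made up most of their sum. The mean sum was 2587 FPKM in R3-Cntl SFZ and 2876 FPKM in SFZ labelled R3-cKO. In DZ cells it was 426 and 300 FPKM. By limma, 0 genes of the macrophage, muscle, endothelial and osteoblast lists were called between zones in either genotype. With the replicate number as a block, 1 endothelial gene was called lower in DZ cells of each genotype, and 2 osteoblast genes in those labelled R3-cKO.

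**Figure D5:**
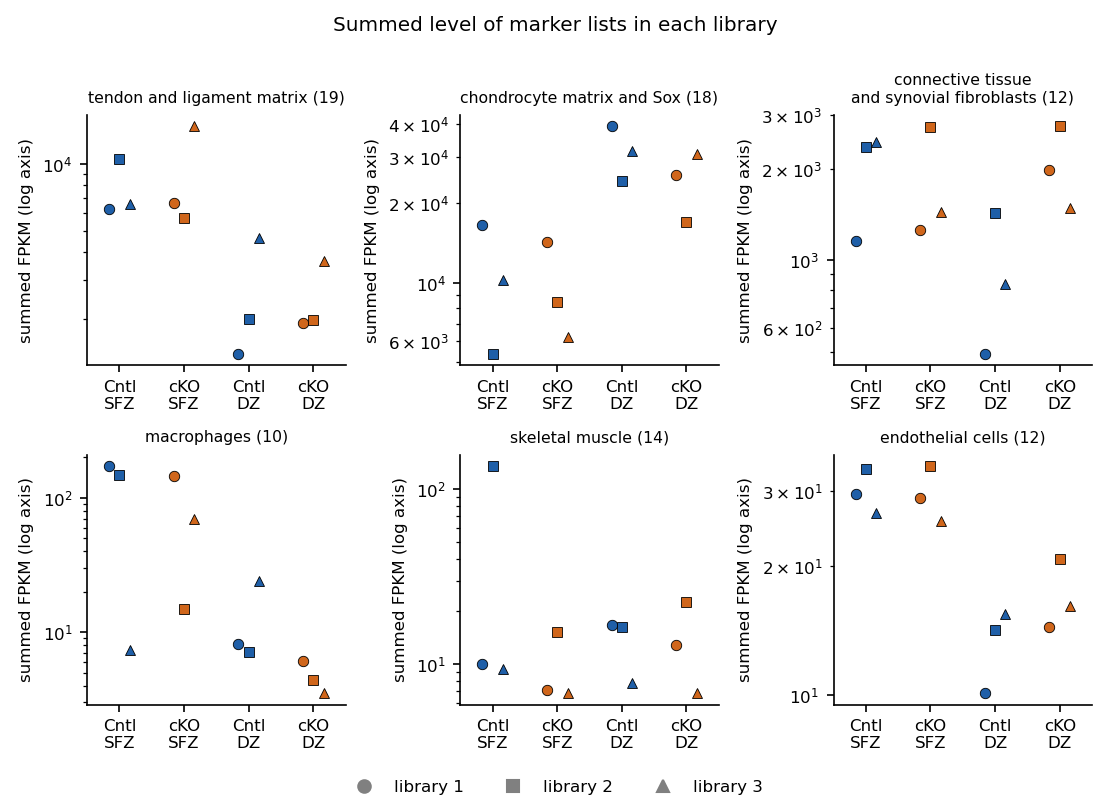
Summed FPKM of 6 marker lists in each of the 12 libraries, on a log axis, by genotype label (colour), zone and library number (symbol); the number of genes is in parentheses. Tendon and ligament sums are 5668 to 14694 FPKM in SFZ and 1395 to 4603 FPKM in DZ libraries, and chondrocyte sums lie the other way.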

How the data were processed

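The authors produced 100-bp paired-end reads on a BGIseq-500 and mapped them to mm9; the submitters' processing notes name Bowtie 0.12.2. The deposited values are taken as FPKM after TMM scaling by the authors (trimmed mean of M values), inferred from the values and their name. The study's methods describe other processing, quantile normalization and log2 CPM. Depth per library is unknown, and counts were absent. All 12 columns carried a genotype, a zone and a number.

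Values were analysed as log2(FPKM + 1) in R 4.3.3 with limma 3.58.1 (trend), for genes reaching 1 FPKM in 3 or more libraries of a comparison, with Benjamini-Hochberg adjustment over all genes tested. The code was tested on simulated data. Single values were compared by exact permutation. Python 3.11.15, pandas 2.3.3, NumPy 2.4.6, SciPy 1.17.1, matplotlib 3.10.9 and Biopython 1.88 were used. Gene positions came from GENCODE on mm9 and promoters from RefSeq on GRCm38.p6.

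The 4 genes and the lists were chosen with earlier results of these data known. Of each list, up to 6 genes by level and by change among those called were named, with 5 genes most like each of the 4. Bop1 was chosen for its position, after its values could be seen.

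Equal numbers paired libraries where every correlation of deviations from group means exceeded 0.1 over 11359 genes, as between zones in R3-cKO (0.42, 0.78 and 0.65) and between genotypes in DZ cells (0.65, 0.78 and 0.69); the study names littermates. Alternatives were filters, pseudocounts, scalings, the replicate block, a single model of 12 libraries, ratios of means, and each library left out.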

Additional observations from a re-analysis of the deposited data

How the results depend on the processing

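Where zones did not overlap, as for all but Cnmd in R3-cKO, leaving out a library, another pseudocount or a ratio of means could not turn a direction. With that limit, the zone differences of Tnmd, Cnmd, Scx and Mkx kept their direction under every alternative that gave a value. Their size moved with the pseudocount where levels were low: with 0.1 in place of 1, Tnmd was at -5.96 in R3-Cntl and -8.06 in R3-cKO, and with 5 it was at -2.94 and -3.20 and Mkx at -0.67 and -0.77. As a log2 ratio of arithmetic means Tnmd was at -6.26 in R3-Cntl and at -9.05 in R3-cKO, where 2 of 3 DZ libraries are listed at 0. Leaving out each library gave -5.28 to -4.12 for Tnmd, 1.07 to 1.93 for Cnmd, -1.47 to -0.93 for Scx and -1.48 to -0.96 for Mkx in R3-Cntl, and -5.61 to -4.77, 0.73 to 1.41, -0.94 to -0.45 and -1.47 to -0.91 in R3-cKO.

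Counts of genes called between zones moved most. In R3-Cntl the 140 calls became 0 with no filter, 8 with a mean of at least 10 FPKM, 88 with a pseudocount of 0.1, 29 with 5, 1 with quantile normalization, 17 with median-of-ratios size factors and 798 in a single model of all 12 libraries. Equal numbers did not pair these libraries (correlations 0.58, 0.11 and -0.15), and with the replicate block 831 genes were called, among them 9 of 18 chondrocyte genes (higher), 6 of 18 tendon matrix and 4 of 9 fibroblast genes (lower); library 1 alone correlated best with its own number. Leaving out each library gave 0 to 505 calls: 0 without SFZ library 2, DZ library 1 or DZ library 2, 3 without SFZ library 3, 4 without DZ library 3 and 505 without SFZ library 1. In R3-cKO the 2 calls became 7 with no filter, 0 with a mean of at least 10 FPKM, 1 with either pseudocount, 352 with the replicate block and 165 in the single model. Leaving out each library gave 0 to 5: 0 without SFZ library 1 or any DZ library, 1 without SFZ library 2 and 5 without SFZ library 3. The split of calls, 17 higher and 123 lower in R3-Cntl, was 4 and 13 with median-of-ratios size factors and 0 and 1 with quantile normalization. At an unadjusted p under 0.05, 560 higher and 2542 lower became 1685 and 1098 with quantile normalization and 1339 and 1308 with median-of-ratios size factors. In R3-cKO the 344 and 1258 became 702 and 669, and 669 and 711. Between genotypes quantile normalization moved 21 higher and 13 lower to 40 and 10 in SFZ, 277 and 127 to 237 and 212 in DZ, and 78 and 21 to 52 and 52 for the interaction, which median-of-ratios size factors moved to 63 and 37. The cause was not tested.

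Genotype calls stayed at 0 throughout, with 51 genes at an unadjusted p under 0.05 in SFZ, 1830 in DZ and 949 for the interaction with the replicate block; the smallest adjusted p with the block in DZ was 0.0587. Equal numbers did not pair the SFZ libraries of the 2 genotypes (correlations 0.79, -0.09 and -0.42), where again only library 1 did so. Apart from the zone comparisons, the block changed no count of calls. In SFZ, leaving out each library gave -0.50 to 0.66 for Tnmd, -0.42 to 0.43 for Cnmd and -0.01 to 0.65 for Mkx, and library 1 as the only R3-cKO library, chosen after seeing the data, gave -0.24, 0.68 and -0.02. Tnmd turned when R3-Cntl SFZ library 3 (-0.50) or R3-cKO SFZ library 3 (-0.36) was left out. Cnmd turned when R3-Cntl SFZ library 1 (0.43), R3-cKO SFZ library 2 (0.24) or R3-cKO SFZ library 3 (0.06) was, and Mkx when R3-cKO SFZ library 3 (-0.01) was. In DZ, Tnmd moved from -0.51 to -1.93 with a pseudocount of 0.1, to -0.13 with 5 and to -2.70 as a ratio of means. The interaction of Mkx, -0.04, was 0.05 with a pseudocount of 0.1, 0.08 with library 1 alone and -0.32 to 0.33 with each library left out, above 0 without library 1 (0.02) or 3 (0.20) of R3-Cntl SFZ, 3 of R3-cKO SFZ (0.33), 3 of R3-Cntl DZ (0.13) or 1 of R3-cKO DZ (0.10). The cause was not tested.

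For 36 zone differences of list genes, 373 of 487 values under the alternatives kept direction and side of the threshold, 82 no longer passed, 28 newly passed and 4 turned. These were Itm2a in R3-Cntl, at -0.19 without SFZ library 3 of that genotype and -0.17 without its DZ library 3, and Itm2c, at 0.02 with median-of-ratios size factors and 0.03 without DZ library 2 (-0.55 without DZ library 3). Scx and Mkx gave no value where their mean was below 10 FPKM. Tnmd gave no limma value in DZ cells with the filter. Since depth is unknown, a value of 0 cannot be told from one too low to count, and Tnmd in DZ cells is limited most.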

Other observations

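Tnmd and Cnmd inhibit the growth of blood vessels, and other genes of that role were counted as a list. Of 7 angiogenesis inhibitors tested, 2 fell in DZ cells of R3-Cntl by limma, Col18a1, the source of endostatin (log2 difference -2.55, SE 0.23; adjusted p = 0.0309), and Serpinf1, the gene of pigment epithelium-derived factor (-1.66, SE 0.24; adjusted p = 0.0480). Col18a1 was at 13.06, 16.06 and 8.48 FPKM in SFZ and at 1.05, 1.15 and 1.59 FPKM in DZ libraries, and Serpinf1 at 459.39, 655.25 and 390.12 FPKM in SFZ and at 129.22, 145.34 and 195.63 FPKM in DZ libraries. Their zones did not overlap. The median of the list was -0.71 in R3-Cntl and -0.69 in R3-cKO cells, against -0.17 and -0.09 over all genes. By limma, 1.09% of all genes were called lower in R3-Cntl, and 0 of 7 of the list were called in R3-cKO cells. The replicate block called 4 of the 7 lower in R3-Cntl and 2 in R3-cKO cells. Thbs1 was at 533.61, 1207.1 and 1741.14 FPKM in SFZ and at 669.08, 1638.31 and 2180.1 FPKM in DZ libraries of R3-Cntl, with overlap. In R3-cKO cells Thbs1 was higher in DZ libraries, without overlap (log2 difference 1.29, SE 0.37; limma adjusted p = 0.218). Of 8 angiogenic factors tested in R3-Cntl cells, limma called Vegfc lower (-1.63, SE 0.25, limma adjusted p = 0.0480). The median was -0.60, so both lists lay on the same side as the median of all genes. Vegfc was at 2.36, 4.22 and 2.1 FPKM in SFZ and at 0.02, 0.27 and 0.43 FPKM in DZ libraries. It passed the filter only through its SFZ libraries, and its difference was -3.32 to -0.58 over the alternatives. The replicate block called 3 of the 8 lower in R3-Cntl and 0 in R3-cKO cells. Quantile normalization left 0 genes of either list called.

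Signals of the TGF-beta and GDF families, which act upstream of tendon factors, had 11 of 14 genes tested and 0 called by limma in either genotype. The replicate block called 1 lower in each genotype. Medians between zones were -0.29 in R3-Cntl and -0.26 in R3-cKO cells, close to those of all genes. Tgfb3 was at 26.33, 67.64 and 41.56 FPKM in SFZ and at 4.67, 17.25 and 20.53 FPKM in DZ libraries of R3-Cntl, without overlap. Of 10 hypertrophic genes, Pth1r rose in DZ cells of R3-Cntl (1.18, SE 0.15; limma adjusted p = 0.0473), though not with quantile normalization or median-of-ratios size factors, and the medians were 0.48 and 0.60. Of 9 superficial zone genes tested in R3-Cntl cells, 7 lay below 0 and 2 above. By limma, Thbs4 and Prg4, the gene of lubricin, fell (Prg4 -2.36, SE 0.38, limma adjusted p = 0.0485). The 2 above 0, named after their values were seen, were Gdf5 (0.96, SE 0.29) and Sfrp5 (2.50, SE 1.29), and neither was called. Thbs4 and Abi3bp of this list are also in that of tendon and ligament matrix. The medians were -0.69 in R3-Cntl and -0.67 in R3-cKO cells. Quantile normalization left 0 of the 9 called and median-of-ratios size factors 1. By the replicate block, 3 of 9 were called lower and 1 higher in R3-Cntl cells, where equal numbers did not pair the libraries. In R3-cKO cells Prg4 was at -0.27 (SE 0.51; limma adjusted p = 0.880), and limma called 0 of 8, or 2 with the replicate number as a block. Runx1, Runx2, Runx3 and Cbfb had a median of -0.23 and -0.07 and 0 calls by limma.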
